A study of Mus musculus with 4 samples.

Results

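The MHC class II presentation genes described here are H2-Aa, H2-Ab1, H2-Eb1, Cd74, H2-DMa, H2-DMb1, H2-DMb2, H2-Oa, H2-Ob and Ciita. They were chosen by symbol and not by any measured value, and they were 10 of the 32285 genes listed for the CD45+ cells and 10 of the 31053 genes listed for the T cell sort. Class II molecules carry peptides from endosomes to the cell surface, where CD4 T cells read them. The alpha and beta chains of I-A (H2-Aa and H2-Ab1) and the beta chain of I-E (H2-Eb1) build the molecule, although C57BL/6 mice make no functional I-E alpha chain. The invariant chain Cd74 blocks the groove until it is degraded, H2-DM (H2-DMa with a beta chain from H2-DMb1 or H2-DMb2) exchanges its last fragment for peptide, H2-O (H2-Oa with H2-Ob) restrains H2-DM, and Ciita is the transactivator that switches the set on. Dendritic cells (DCs), B cells and, when activated, macrophages are the usual class II cells, whereas mouse T and NK cells are not.

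All cells came from B16-F10 melanoma, here a single-cell clone with a doxycycline (dox)-inducible gene for the fluorescent protein ZsGreen (ZsG), grown under the skin of wild-type C57BL/6 mice that drank dox, with tumors taken on day 8. CD45+ cells were sorted into a ZsG- and a ZsG+ library, and cells stained for CD45 and TCRb were sorted separately into ZsG- and ZsG+ (the T cell sort). The question put to these libraries was which tumor-infiltrating cells had taken up tumor material, and what distinguished them. Each of the 4 groups was 1 library of 10x 3′ RNA counted in unique molecular identifiers (UMIs), and the sources used here do not give the number of tumors in it. There was thus no replicate and no test: intervals are exact 95% intervals that cover counting error only, and no difference could be set against the spread between mice.

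The 4 libraries held 1136 to 5437 cell barcodes and 10030971 to 56510578 UMIs, and any 2 of them shared 1 to 6 barcodes. The members took 0.154% of the UMIs in CD45+ ZsG- cells and 2.10% in CD45+ ZsG+ cells, 0.354% in the ZsG- library of the T cell sort and 0.747% in its ZsG+ library. The labels of the T cell sort contradict each other on which barcode suffix is ZsG+. The suffix with 2396 barcodes was taken as ZsG+, and the opposite reading would turn the sign of every ZsG comparison in that sort. After the cell filters, 4699 and 4123 cells (CD45+ ZsG- and ZsG+) and 948 and 1879 cells (T cell sort) were clustered without the class II genes and named from marker genes. The classes were thus rebuilt here, and cells called macrophage-like or classical monocyte-like need not be the cells the study grouped under those names. Genes such as Cxcl9, Nos2 and Ifit2, which led some macrophage-like clusters, can be expressed by activated monocytes too. In the T cell sort many cells did not carry T cell markers, for example 500 pDC-like cells in its ZsG+ library, and the ZsG- library held 26 melanoma-like cells against 9 in the ZsG+ library. Under the reading used, its cluster led by Foxp3 and Tnfrsf4 held 97 ZsG+ and 30 ZsG- cells. The opposite reading would exchange these counts. The study reported regulatory T cells, which express Foxp3, to be enriched among ZsG+ T cells, also by flow cytometry.

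By position, 8 of the 10 genes lie within 224 kb of mouse chromosome 17 (34092340 to 34316674, GRCm38), the class II region of the MHC. H2-Aa is at 34282744 to 34287823, H2-Ab1 at 34257689 to 34269419, H2-Eb1 at 34305867 to 34316674, H2-DMa at 34119541 to 34139101, H2-DMb2 at 34143307 to 34151555, H2-DMb1 at 34153072 to 34160230, H2-Oa at 34092340 to 34095234 and H2-Ob at 34238903 to 34254414. Ciita is on chromosome 16 (10480059 to 10528418) and Cd74 also lies outside the region. RefSeq promoters (GRCm38.p6, 250 bases before to 50 after each start) matched 7 of the 10 genes. They are shown because the set is known for a shared promoter module of X, X2 and Y boxes, to which Ciita is brought by the RFX, CREB and NF-Y proteins. Capitals mark AAC and ATGATGC with 2 bases between them (X and X2 boxes) and GATTGG (Y box), 2 patterns written after the sequences had been looked at, so their recovery here is no result.
H2-Eb1, chr17:34305755-34305824, plus strand: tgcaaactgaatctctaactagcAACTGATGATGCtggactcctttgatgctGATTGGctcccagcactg
H2-DMb1, chr17:34153077-34153146, plus strand: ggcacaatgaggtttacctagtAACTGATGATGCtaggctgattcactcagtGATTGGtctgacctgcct
H2-DMb2, chr17:34145106-34145175, plus strand: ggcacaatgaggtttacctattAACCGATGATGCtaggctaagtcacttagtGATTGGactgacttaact
H2-Ob, chr17:34238795-34238864, plus strand: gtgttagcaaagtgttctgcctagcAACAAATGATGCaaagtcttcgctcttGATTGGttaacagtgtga
H2-Aa, chr17:34287855-34287924, minus strand: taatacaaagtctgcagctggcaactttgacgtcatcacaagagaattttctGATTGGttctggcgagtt
H2-Oa, chr17:34092283-34092352, plus strand: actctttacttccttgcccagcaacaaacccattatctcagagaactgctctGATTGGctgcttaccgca

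Searched on both strands with no overlap between the patterns, GATTGG was in 16.1% of 32851 mouse promoters and in the promoters of all 7 genes, including 1 of the 2 listed starts of H2-DMa. It lay 199 bases before that start and 44 to 91 bases before the starts of the other genes. The X and X2 pattern was in 13 promoters of the genome (0.0396%), 4 of them those of H2-DMb1, H2-DMb2, H2-Eb1 and H2-Ob. Only those 4 promoters held both patterns on the strand of the gene, with 15 to 18 bases between them. The X and X2 pattern is strict. A promoter without it, such as that of H2-Aa, may still hold these boxes in other letters. The stretches of H2-DMb1 and H2-DMb2 printed above resemble each other over their whole length. The 2 genes are close copies, and 27.2% of the 50-base words of the longest H2-DMb1 transcript, 20.4% in its last 500 bases, occur in transcripts of H2-DMb2. Of the longest H2-DMb2 transcript, 25.2% of the words occur in transcripts of H2-DMb1, but 0 of 451 in its last 500 bases. Counts of these 2 genes, H2-DMb1 above all, are thus less certain than those of the other members.

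DC2-like and DC1-like cells had the highest summed class II level, and macrophage-like cells came next among the large classes. Levels are given as UMIs per 1000000 UMIs of a class and library (CPM). Because 1 UMI stands for 1 captured RNA end, gene length does not enter when they are set beside each other across genes. Losses from sequence shared between genes, as in H2-DMb1 and H2-DMb2, can still enter. In CD45+ ZsG+ cells the 10 members together reached 38667 CPM in 340 DC2-like cells, 34697 in 97 DC1-like cells, 22834 in 73 mature DC-like cells and 21625 in 1934 macrophage-like cells. The levels there were 11850 CPM in 664 classical monocyte-like cells, 4268 in 27 nonclassical monocyte-like cells, 4088 in 21 pDC-like cells, 1289 in 113 NK/ILC-like cells and 621 in 196 T-like cells. The counting intervals of adjacent classes overlapped only for the nonclassical monocyte-like (3930 to 4627) and pDC-like (3759 to 4438) cells. Under a mean of per-cell levels in place of the sum, the leading class was another in 2 of 44 orders of a gene within a library, H2-Eb1 in CD45+ ZsG- cells and H2-Ob in the ZsG+ library of the T cell sort.

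**Figure D1:**
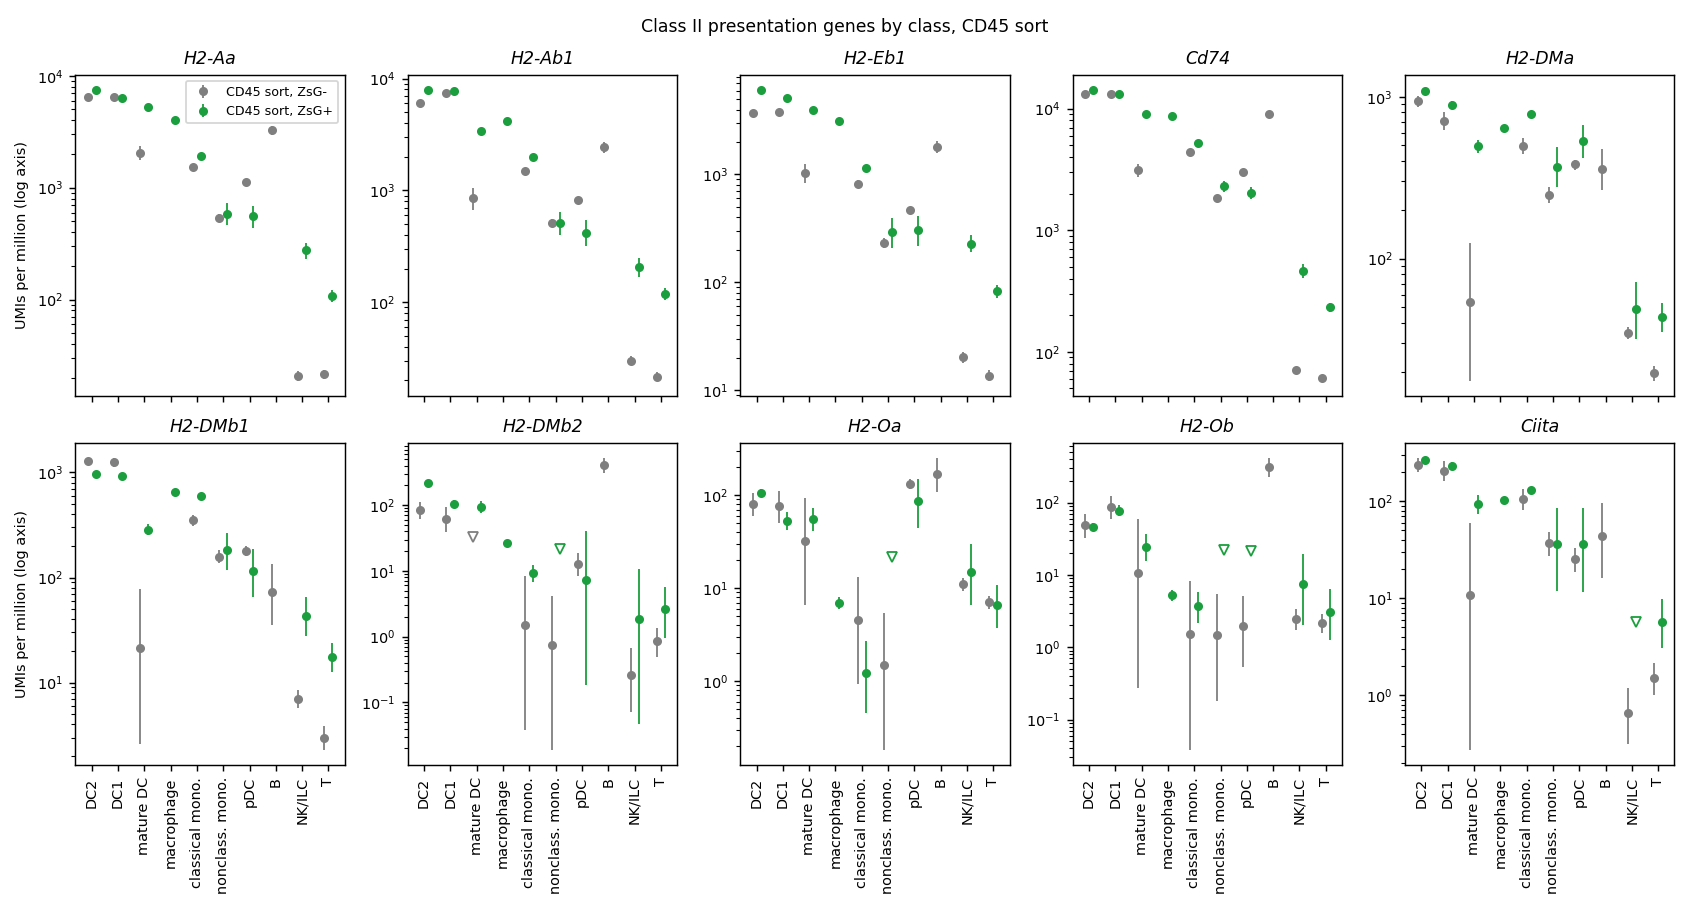
Level of each of the 10 class II genes (1 panel each; CPM, log axis) by class in the CD45+ sort, grey for ZsG- and green for ZsG+, with 95% counting intervals, and open triangles at the 3-UMI limit where no UMI was found. DC2-like and DC1-like cells are highest for the chains, Cd74 and Ciita, B-like cells for H2-DMb2, H2-Oa and H2-Ob, and NK/ILC-like and T-like cells are lowest for the chains and Cd74.

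The I-A and I-E chains followed this order closely. H2-Aa, H2-Ab1 and H2-Eb1 stood at 7519, 7960 and 6122 CPM in DC2-like, at 4045, 4196 and 3161 in macrophage-like and at 1935, 1985 and 1155 in classical monocyte-like ZsG+ cells of the CD45+ sort. Nearly all macrophage-like cells held UMIs of them (98.6%, 98.6% and 96.6% of cells), against 85.4%, 84.8% and 73.6% of the classical monocyte-like cells. H2-Aa was found in 5.38% of CD45+ ZsG- NK/ILC-like cells, a class that should lack it. Median depth was 10899.5 UMIs per cell in the macrophage-like, 6778.5 in the classical monocyte-like and 4589.5 in the NK/ILC-like cells.

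The alpha and beta chains of I-A stood near 1 to 1 in most classes with many UMIs, with more H2-Aa in mature DC-like, pDC-like and B-like cells. H2-Aa per H2-Ab1 was 0.964 (0.956 to 0.972) in macrophage-like, 0.819 (0.797 to 0.84) in DC1-like and 0.945 (0.931 to 0.958) in DC2-like ZsG+ cells. It was 1.55 (1.48 to 1.62) in the mature DC-like ZsG+ cells, 2.39 (1.83 to 3.15) in the 12 mature DC-like ZsG- cells and 1.73 (1.63 to 1.82) in the mature DC-like cells of the T cell sort. H2-Eb1 per H2-Ab1 was also highest there, at 1.17 and 1.2 in the CD45+ sort and 1.40 in the T cell sort, against 0.38 to 0.809 in the monocyte-like, macrophage-like, DC1-like and DC2-like classes. The pDC-like cells had an H2-Aa per H2-Ab1 of 1.33 to 1.39 in 4 libraries and the B-like cells 1.34 (1.16 to 1.55).

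Cd74 was the most abundant member in every one of these classes. It reached 14374 CPM in DC2-like, 13225 in DC1-like, 9079 in mature DC-like, 8785 in macrophage-like and 5252 in classical monocyte-like ZsG+ cells. Set against both I-A chains, it did not follow the class II level in every class. Cd74 per I-A UMI was 0.929 to 0.943 in the DC2-like and DC1-like ZsG+ cells, 1.06 in DC2-like ZsG- cells, 1.07 in macrophage-like, 1.34 in classical monocyte-like and 2.10 (1.72 to 2.57) in nonclassical monocyte-like ZsG+ cells, and 1.55 (1.49 to 1.62) and 1.61 (1.47 to 1.76) in the pDC-like and B-like ZsG- cells. In the T cell sort this ratio was 0.997 in classical monocyte-like and 1.04 in macrophage-like ZsG+ cells, and 1.46 and 1.07 in the ZsG- ones. In the NK/ILC-like and T-like ZsG+ cells of the CD45+ sort, which had little class II, it was at 0.965 (0.806 to 1.15) and 1.02 (0.899 to 1.15).

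H2-DM, the peptide editor, was less graded than the chains it serves. H2-DMa was at 1085 CPM in DC2-like, 893 in DC1-like, 777 in classical monocyte-like, 643 in macrophage-like and 533 in pDC-like ZsG+ cells. H2-DMb1 was at 975, 920, 601, 654 and 115 CPM in the same 5 classes. H2-DM per I-A UMI was therefore 0.354 in classical monocyte-like, 0.161 in macrophage-like and 0.147 in DC2-like ZsG+ cells of the CD45+ sort. In the T cell sort, classical monocyte-like and macrophage-like cells were at 0.171 and 0.162 in ZsG+, and at 0.378 and 0.168 in ZsG- cells. The ratio was lowest in the mature DC-like cells (0.10 in CD45+ ZsG+, 0.0598 in the T cell sort and 0.0261, from 7 H2-DM UMIs, in CD45+ ZsG-). H2-DMb2 made up little of the H2-DM beta UMIs in macrophage-like cells, at 0.0402 (0.0371 to 0.0434) per H2-DMb1 UMI, and more in DC2-like ones, at 0.219 (0.205 to 0.234). Of the 653 H2-DMb2 UMIs of the macrophage-like cells, 333 were in the cycling cluster of 201 cells led by Anln, and the other 1733 cells had 0.0242 H2-DMb2 UMIs per H2-DMb1 UMI. In B-like cells it outnumbered H2-DMb1, with 55 UMIs against 10, or 404 CPM against 73.4. In mature DC-like cells of the T cell sort it did so as well, with 118 UMIs against 40, but not in those of the CD45+ sort (88 against 267).

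Of H2-O, the restrainer of H2-DM, H2-Oa was highest in DC-like, pDC-like and B-like cells, and H2-Ob in DC-like and B-like cells. H2-Oa was at 106 CPM in DC2-like, 86.4 in pDC-like, 55.5 in mature DC-like and 52.9 in DC1-like ZsG+ cells, against 6.9 in macrophage-like and 1.2 in classical monocyte-like cells. The macrophage-like H2-O UMIs were also mostly in the cycling cluster, 119 of 172 for H2-Oa and 67 of 130 for H2-Ob. That cluster had a median of 22008 UMIs per cell, against 6680.5 to 12167 in the other macrophage-like clusters. Its leading genes included Ifitm1, a DC2 marker used here. Whether it held DCs or doublets was not tested. The highest H2-Oa levels were in ZsG- B-like cells, 169 CPM, and pDC-like cells, 132. H2-Ob followed another order. It was at 308 CPM in B-like and at 77.6 and 45.8 in DC1-like and DC2-like ZsG+ cells, whereas 222 pDC-like ZsG- cells held 4 UMIs of it, 2.0 CPM. The pDC-like cells thus had 66.8 (25.8 to 247) H2-Oa UMIs for each H2-Ob UMI in the CD45+ ZsG- library and 74.3 (35.8 to 186) in the ZsG+ library of the T cell sort, and B-like cells had 0.548 (0.314 to 0.932).

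Per H2-DM UMI, H2-O was at 0.00917 (0.00816 to 0.0103) in macrophage-like and 0.0681 (0.059 to 0.0783) in DC1-like ZsG+ cells, a log2 difference of 2.89 (2.63 to 3.15). The cycling cluster held 186 of the 302 macrophage-like H2-O UMIs, and without it, which was tried once these values were known, the macrophage-like value was 0.00434 and the difference 3.97. It was at 0.0668 in DC2-like, 0.0918 in mature DC-like and 0.234 in pDC-like cells (the last ZsG-), and at 0.57 (0.414 to 0.78) in B-like cells. The T cell sort gave the same low value for macrophage-like cells, 0.00557 in ZsG+ and 0.00341 in ZsG-, and 0.0666 for its DC1-like, 0.0592 for its ZsG+ DC2-like and 0.275 for its ZsG+ pDC-like cells. Its mature DC-like cells, at 0.30 (0.238 to 0.375), stood above those of the CD45+ sort. The H2-O UMIs of pDC-like cells were almost all H2-Oa. There were 267 against 4 of H2-Ob in the CD45+ ZsG- library and 520 against 7 in the ZsG+ library of the T cell sort. The pDC-like values thus describe H2-Oa and not the pair.

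**Figure D2:**
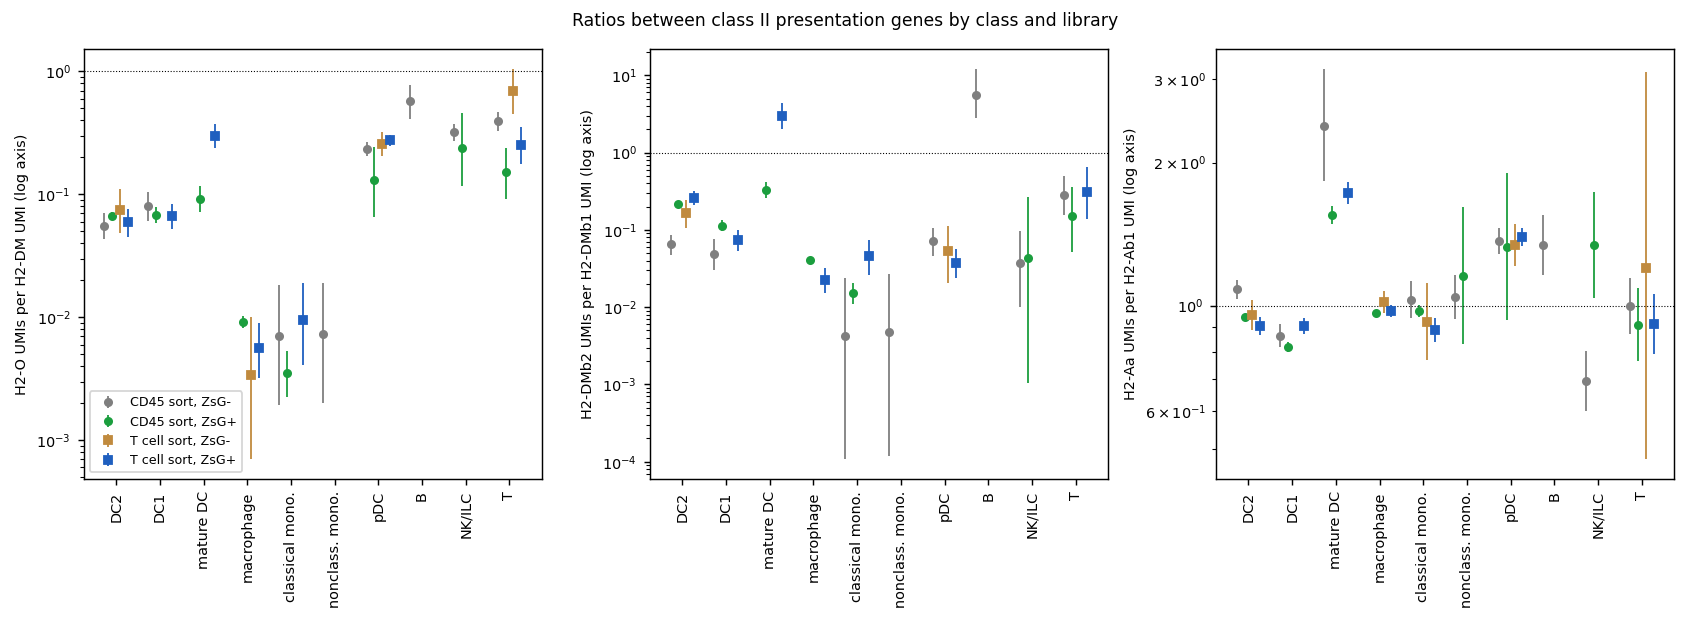
UMIs of H2-O per H2-DM, H2-DMb2 per H2-DMb1 and H2-Aa per H2-Ab1 (log axes) by class, in 4 colours for the libraries of both sorts, with 95% counting intervals and sparse ratios left out. H2-O per H2-DM lies under 0.01 in macrophage-like cells and at 0.57 in B-like cells, H2-DMb2 exceeds H2-DMb1 in B-like cells and the mature DC-like cells of the T cell sort, and H2-Aa per H2-Ab1 is above 1.5 in all 3 points of the mature DC-like cells.

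Ciita itself was low in every class. It was at 266 CPM in DC2-like, 231 in DC1-like, 130 in classical monocyte-like, 102 in macrophage-like and 92.9 in mature DC-like ZsG+ cells, and at 44 in B-like and 25.2 in pDC-like ZsG- cells. The classical monocyte-like cells were thus above the macrophage-like cells in Ciita and below them in the chains. Within a class, cells with a Ciita UMI had more of the other 9 members after every cell was thinned to 2000 UMIs. Among 1931 macrophage-like cells the median was 28500 CPM in the 326 with Ciita and 18500 in the rest, and among classical monocyte-like cells 12750 and 5000. In DC1-like cells (36000 and 35000) and DC2-like cells (42000 and 40000) the 2 medians were close.

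Macrophages arise from classical monocytes in tumors, and the macrophage-like cells had the higher class II sum of the CD45+ ZsG+ library, at 21625 against 11850 CPM, a log2 difference of 0.87 (0.86 to 0.88). The study instead reported class II genes, beside Cxcl9, Nos2 and Ifit2, among the genes of its monocyte-like clusters. Here the clusters led by Cxcl9 and by Ifit2 were called macrophage-like, so the 2 groupings are not alike and the direction is not comparable. By gene, 5 of 10 members were at least 2-fold higher in the macrophage-like cells and 0 lower, where 15.6% of all 11245 genes tested were higher and 4.14% lower. They were H2-Oa (log2 2.49), H2-DMb2 (1.51), H2-Eb1 (1.45), H2-Ab1 (1.08) and H2-Aa (1.06), and the first of these rests on 6 classical monocyte-like UMIs. The calls of H2-Oa and H2-DMb2 rested on the cycling cluster led by Anln, where they were at 25.8 and 72.3 CPM against 2.6 and 15.8 in the other macrophage-like cells. Without it 3 of 10 members, the chains, were at least 2-fold higher, H2-Oa was at 0.99 and H2-DMb2 at 0.76 on the log2 scale, and the difference of the sums was 0.89. Cd74 was at 0.74, H2-DMb1 at 0.12, H2-DMa at -0.27 and Ciita at -0.35. The median was 0.90 for the members and 0.20 for all genes tested. With 10 principal components in the clustering in place of 20, the difference of the sums was 0.18. In the ZsG+ library of the T cell sort it was -0.23, and 2 of 8 members tested, H2-DMb2 and Ciita, were at least 2-fold lower in macrophage-like cells (7.13% of all genes tested). In ZsG- cells of the CD45+ sort, classical monocyte-like cells were in turn at least 2-fold higher than nonclassical ones in all 7 members tested (5.63% of all genes), with a median log2 difference of 1.51.

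Within the macrophage-like cells the level depended on the cluster. The cluster led by Gbp2b, Ch25h and Cxcl9, genes known to respond to interferon gamma, had 27083 CPM in 657 cells. The cluster led by Rsad2 and Ifit2, genes of the type I interferon response, had 22601 CPM in 134 cells, the cycling one led by Anln 20261 in 201, the one led by Pf4 and Ms4a7 17469 in 515 and the one led by Mmp12, Inhba and Nos2 17292 in 427. The 2 classical monocyte-like clusters had 14860 CPM (338 cells, led by Vcan and Chil3) and 8487 CPM (326 cells, led by Chil3, Ifitm6 and Hp). An unnamed cluster led by Clec4n and Ccl6, all ZsG+, reached 27171 CPM in 394 cells, close to the top macrophage-like cluster.

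Single cells of these classes also spread unequally. From the 10th to the 90th percentile, macrophage-like ZsG+ cells ran from 5535 to 40157 CPM around a median of 20359, classical monocyte-like ones from 1263 to 27777 around 6349, and DC1-like ones only from 24116 to 47302 around 35304. The mature DC-like cells ran from 5186 to 46396. At least 90% of the DC1-like cells thus lay above the median macrophage-like cell.

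**Figure D3:**
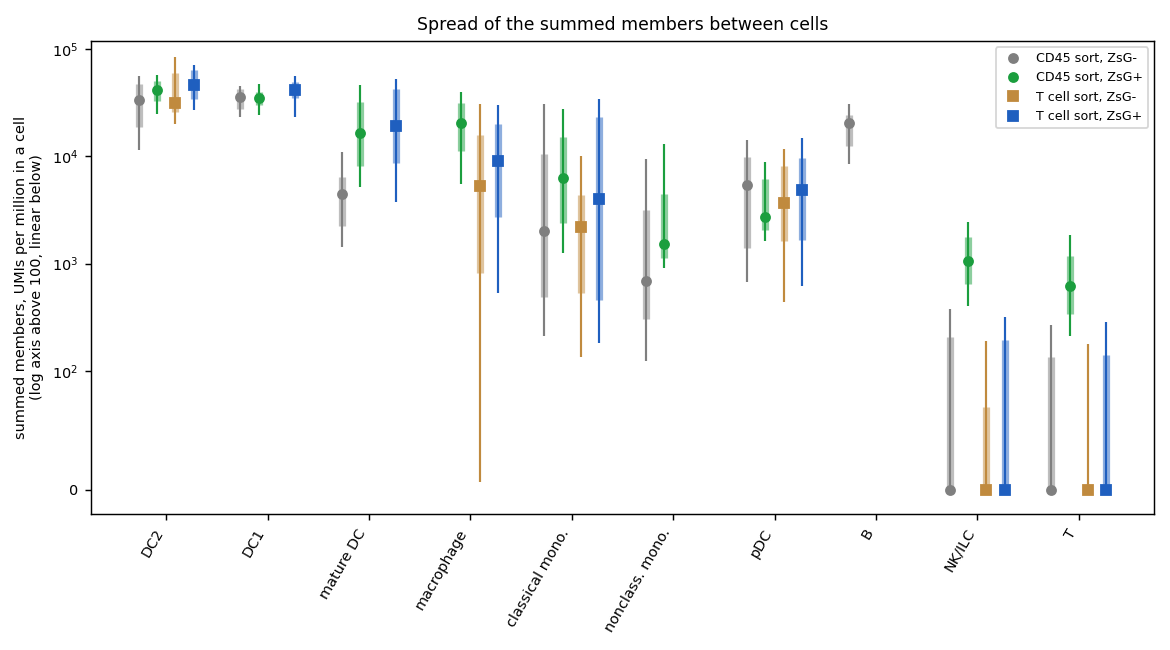
Summed class II level per cell (CPM, log axis above 100 and linear below) by class, in 4 colours for the libraries, as the 10th to 90th percentile (line), the 25th to 75th (bar) and the median (mark). DC1-like cells form the narrowest range, around 35304 CPM in ZsG+ cells, and classical monocyte-like cells one of the widest, and the median NK/ILC-like and T-like ZsG- cell is at 0.

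Against macrophage-like cells, all 10 members were higher in both DC classes. In the CD45+ ZsG+ library 4 of 10 were at least 2-fold higher in DC1-like cells (9.98% of all genes tested) and 4 in DC2-like cells (5.17%), namely H2-DMb2, H2-Oa, H2-Ob and Ciita in both. H2-Ob was 3.89 higher on the log2 scale in DC1-like and H2-Oa 3.94 higher in DC2-like cells. The chains were 0.64 to 0.95 higher and Cd74 0.59 and 0.71. In the ZsG+ library of the T cell sort all 10 members passed 2-fold in both comparisons, against 8.3% and 6.28% of all genes tested. There the class II sums were 46739 CPM in 33 DC2-like and 40509 in 40 DC1-like cells against 12828 in 226 macrophage-like cells.

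Mature DC-like cells (led by Fscn1, Ccl22 and Ccr7), the state in which DCs migrate to lymph nodes, were below DC2-like cells in all 10 members in the CD45+ sort. Of these, 5 were at least 2-fold lower (13.6% of all genes), H2-DMb1 (-1.77), Ciita (-1.52), H2-Ab1 (-1.22), H2-DMb2 (-1.19) and H2-DMa (-1.14). In the T cell sort 4 were at least 2-fold lower (20% of all genes), H2-DMb1 by the most, at 68.8 CPM against 1069, and H2-Oa (105 against 96.6 CPM) and H2-Ob (68.8 against 43.9) were above the DC2-like level. March1, the ligase that takes class II off the surface, was at 15 CPM against 64 in the CD45+ sort and at 0 UMIs in 53 cells of the T cell sort, where the DC2-like cells had 53 CPM. Cd83, which shields class II from that ligase, was at 584 CPM against 339 and at 752 against 331.

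The pDC-like cells were far below DC2-like cells in 9 of 10 members, each past 2-fold, in the CD45+ ZsG- library (9.67% of all genes lower). The exception was H2-Oa, at 132 CPM against 80.1. B-like cells (37 cells, ZsG- library) were at least 2-fold higher than DC2-like cells in H2-Ob, H2-DMb2 and H2-Oa (14.6% of all genes higher) and lower in 5 members (22.5%), including Ciita, at 44 against 237 CPM. The B-like Ciita value rests on 6 UMIs.

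ZsG+ and ZsG- cells of the same class were compared next, within each sort, since ZsG marks the cells that took up tumor material. In the CD45+ sort the class II sum was higher in ZsG+ cells in 7 of 8 classes, and by little in the DC1-like (log2 0.06, 0.04 to 0.09), DC2-like (0.27, 0.25 to 0.29) and monocyte-like classes. No macrophage comparison was possible there, since only 3 macrophage-like cells were ZsG-. Macrophage-like cells of the T cell sort had 12828 CPM in 226 ZsG+ and 10665 in 74 ZsG- cells, a log2 difference of 0.27.

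**Figure D4:**
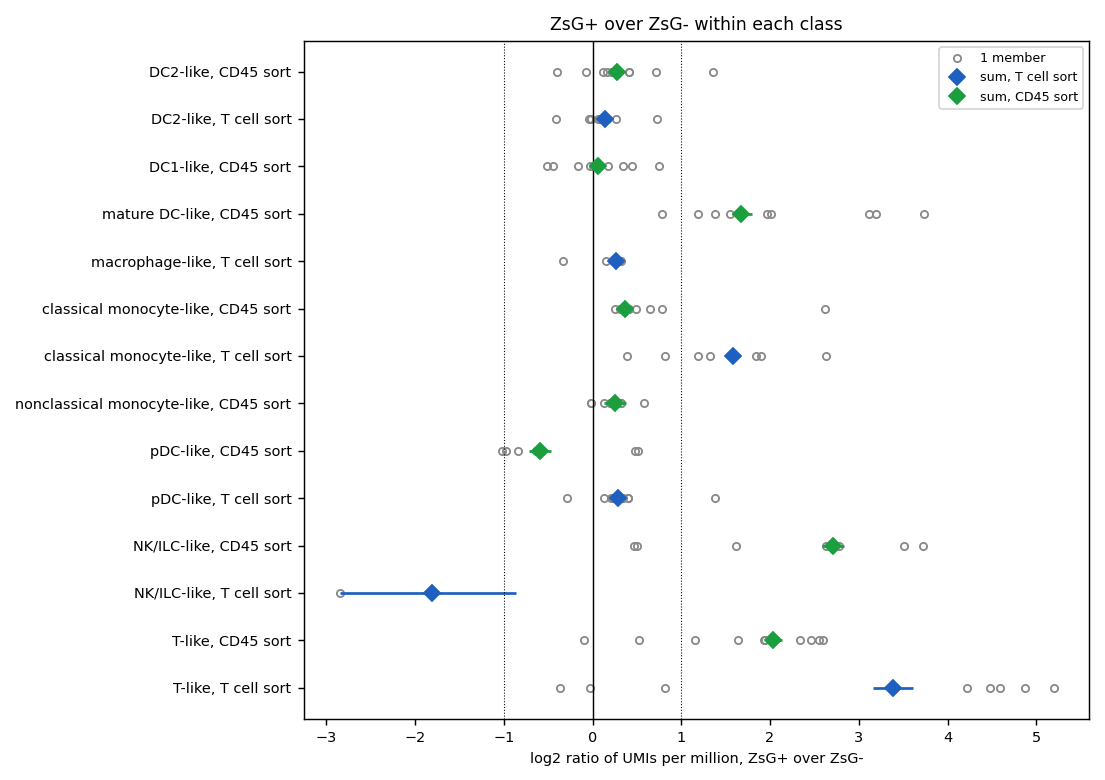
Log2 ratio of ZsG+ over ZsG- CPM by class and sort, for single members (open circles; those with too few UMIs, or none on a side, left out) and for their sum (diamonds, green for the CD45+ and blue for the T cell sort, with 95% counting intervals), with dotted lines at 2-fold. Sums of the DC1-like and DC2-like classes lie near 0, and those of the NK/ILC-like cells of the CD45+ sort (2.71) and the T-like cells (2.04 and 3.38) lie farthest to the right.

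Classical monocyte-like cells had 11850 CPM in 664 ZsG+ and 9223 in 71 ZsG- cells (log2 0.36, 0.32 to 0.40). All 8 members tested were higher and 1, H2-DMb2, passed 2-fold, where 7.86% of all genes did. That call rests on 1 UMI in the ZsG- cells, against 45 in the ZsG+ cells. H2-Aa was found in 85.4% of ZsG+ and 38.0% of ZsG- cells, and the median cell was at 6349 against 1997 CPM. The classes were not made of the same cells. Of the ZsG- cells 66 lay in the cluster led by Chil3, Ifitm6 and Hp, and the ZsG+ cells were split between it (326) and the cluster led by Vcan and Chil3 (338). In the first cluster taken alone, which was tried once these values were known, the log2 difference of the sums was -0.13. H2-Aa was found in 78.8% of the ZsG+ and 36.4% of the ZsG- cells of that cluster. Its share also differed between these 2 libraries in lymphocytes, at 56.6% of ZsG+ against 5.4% of ZsG- NK/ILC-like cells and 61.7% against 5.5% of T-like cells. The shares and medians of the monocyte-like cells are thus not particular to them, and the cause was not tested. Nonclassical monocyte-like cells (27 ZsG+, 167 ZsG-) had 4268 against 3568 CPM, log2 0.26 (0.13 to 0.38), with 0 of 7 members past 2-fold in either direction (5.17% of all genes higher, 7.7% lower). That difference turned to -0.054 with TMM factors and -0.042 with a 5% limit on mitochondrial UMIs.

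DC1-like cells (97 ZsG+, 27 ZsG-) had 34697 against 33177 CPM and 0 members past 2-fold in either direction (9.88% of all genes higher, 4.41% lower). Their H2-Aa (6311 and 6431 CPM), Cd74 (13225 and 13133) and Ciita (231 and 205) were close in the 2 libraries, while H2-Eb1 was 0.45 higher and H2-DMb1 0.44 lower on the log2 scale. DC2-like cells (340 ZsG+, 56 ZsG-) had 38667 against 32072 CPM and 1 member past 2-fold, H2-DMb2, at 214 against 83.5 CPM (13% of all genes higher). DC2-like cells of the T cell sort had 46739 against 42362 CPM in 33 and 10 cells, with 0 members past 2-fold (4.79% of all genes higher, 4.68% lower).

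Mature DC-like cells differed most among the DCs, at 22834 CPM in 73 ZsG+ and 7136 in 12 ZsG- cells, log2 1.68 (1.57 to 1.79). Of the 10 members 8 were at least 2-fold higher, where 19.6% of all genes were. H2-DMa was at 494 CPM against 53.7 and H2-DMb1 at 285 against 21.5, the latter from 2 UMIs in the ZsG- cells. Of the genes that process antigen and the invariant chain, 5 of 7 were at least 2-fold higher, with a median log2 of 1.2 (0.04 for all genes tested), Ctsb by 3.69, and Ctsl had no UMI in the ZsG- cells. Macrophage markers were higher too. The 8 macrophage marker genes, C1qa and Apoe among them, had 0 UMIs in the ZsG- and 2962 (3164 CPM) in the ZsG+ mature DC-like cells. They had 0 against 3499 UMIs in DC1-like and 7 against 16778 UMIs in DC2-like cells. In the macrophage-like cells of the same library, class II stood to these markers at 2.02 to 1. At that ratio the markers would go with 6377 CPM of class II in ZsG+ mature DC-like cells, 27.9% of their level. They would go with 4342 CPM (12.5%) in ZsG+ DC1-like and 6595 CPM (17.1%) in ZsG+ DC2-like cells. These are shares of the ZsG+ level and not of the ZsG difference. The amount was larger than that difference in DC1-like cells (34697 against 33177 CPM). It was about as large in DC2-like cells (38667 against 32072) and smaller in mature DC-like cells. The part of macrophage RNA in the differences was not tested. In the T cell sort, DC1-like and mature DC-like ZsG+ cells with 29.8 and 8.6 CPM of these markers had 40509 and 25193 CPM of class II.

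The pDC-like cells went the other way, with 4088 CPM in 21 ZsG+ and 6159 in 222 ZsG- cells, log2 -0.59 (-0.72 to -0.47), and 1 of 9 members past 2-fold lower, H2-Aa (10% of all genes lower). The T cell sort had 6360 CPM in 500 ZsG+ and 5215 in 110 ZsG- cells, log2 0.29. The sign in the CD45+ sort also turned when the cells were clustered on 10 principal components (1.24, 101 and 248 cells) or under a 5% limit on mitochondrial UMIs (1.59, 49 and 42 cells).

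NK/ILC-like and T-like cells had little class II RNA, and more of it in ZsG+ cells of the CD45+ sort. By the study's account, that sort took only brightly green cells as ZsG+, and lymphocytes with weaker ZsG mostly ended up among its ZsG- cells, so ZsG- lymphocytes there are not cells without uptake. NK/ILC-like cells were at 1289 CPM in 113 ZsG+ and 197 in 2528 ZsG- cells, log2 2.71 (2.59 to 2.83), and 6 of 8 members tested passed 2-fold (7.79% of all genes). H2-Aa was at 275 against 20.8 CPM and Cd74 at 464 against 70.2. T-like cells were at 621 CPM in 196 ZsG+ and 151 in 1518 ZsG- cells, log2 2.04 (1.95 to 2.13), and 8 of 10 members passed 2-fold (3.36% of all genes). H2-Oa and H2-Ob, at 6.9 and 5.2 CPM in macrophage-like cells, rested on few ZsG+ UMIs. H2-Oa was at 15.1 (8 UMIs) against 11.0 CPM in NK/ILC-like and 6.6 (15 UMIs) against 7.0 in T-like cells. H2-Ob was at 7.5 (4 UMIs) against 2.5 CPM in NK/ILC-like and 3.1 (7 UMIs) against 2.1 in T-like cells. Ciita had 0 UMIs in the ZsG+ NK/ILC-like cells and 13 in the ZsG+ T-like cells.

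The whole distribution differed and not a few cells alone. Every ZsG+ NK/ILC-like and T-like cell had at least 1 class II UMI, whereas 40.0% and 46.2% of the ZsG- cells had one. With each cell thinned to 2000 UMIs, leaving out 1 and 0 ZsG+ and 6 and 4 ZsG- cells, the shares were 86.6% against 20.3% and 71.9% against 16.1%. Without the 1% of cells highest in class II, left out once these values were known, NK/ILC-like cells were at 1019 against 148 CPM and T-like cells at 588 against 64.0. The classes again came from different clusters. Of the ZsG+ NK/ILC-like cells 88 lay in a cluster led by Klrb1c, Klra8 and Gzma that held 10 ZsG- cells. The main ZsG- clusters were led by Klra4 and Klra8 (814 cells), Klra4 and Klrb1c (493) and Xcl1 and Ncr1 (480). Of the ZsG- T-like cells 643 lay in a cluster led by S1pr1 and Ikzf2, and 62 of the ZsG+ ones in a cluster led by S1pr1 and Trdc. In T-like clusters with cells from both libraries, ZsG- and ZsG+ cells were at 53 and 314 CPM in the histone-led cluster, 62 and 433 in the Ifng and Cxcr6 cluster, and 1014 and 697 in the Ctla4 and Foxp3 cluster. In the last of these, 2 of 115 ZsG- cells held 970 of 1690 class II UMIs, and the median cell was at 43.1 CPM in ZsG- and 605 in ZsG+ cells.

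Macrophage markers were higher beside class II in these cells. Their summed level was 396 CPM in ZsG+ against 10.9 in ZsG- NK/ILC-like cells, with 7 and 8 of the 8 genes detected and Adgre1 the one at 0, and 249 against 14.8 in T-like cells, all 8 detected in both. There were 3.26 (2.79 to 3.82) class II UMIs for each marker UMI in ZsG+ NK/ILC-like and 2.49 (2.26 to 2.75) in ZsG+ T-like cells, against 2.02 in the macrophage-like cells of that library and 18.1 and 10.2 in the ZsG- NK/ILC-like and T-like cells. At the macrophage-like ratio these markers would go with 798 of 1289 CPM (61.9%) and 503 of 621 CPM (80.9%). With ZsG- levels of 197 and 151 CPM, the amount was smaller than the ZsG difference in NK/ILC-like and larger in T-like cells. Lgmn and Spi1, genes of myeloid cells in the pathway lists, were 4.35 and 4.08 higher in NK/ILC-like and 4.22 and 2.51 higher in T-like cells on the log2 scale. In the cells without any macrophage marker UMI, class II was at 1026 CPM in 21 NK/ILC-like and 670 in 30 T-like ZsG+ cells, against 197 and 154 in such ZsG- cells. At 396 and 249 CPM of markers and medians of 3556 and 6551.5 UMIs per ZsG+ cell, few marker UMIs fall in a cell. A ZsG+ cell without one may therefore still hold macrophage RNA. The part of RNA from macrophages in these levels was not tested.

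**Figure D5:**
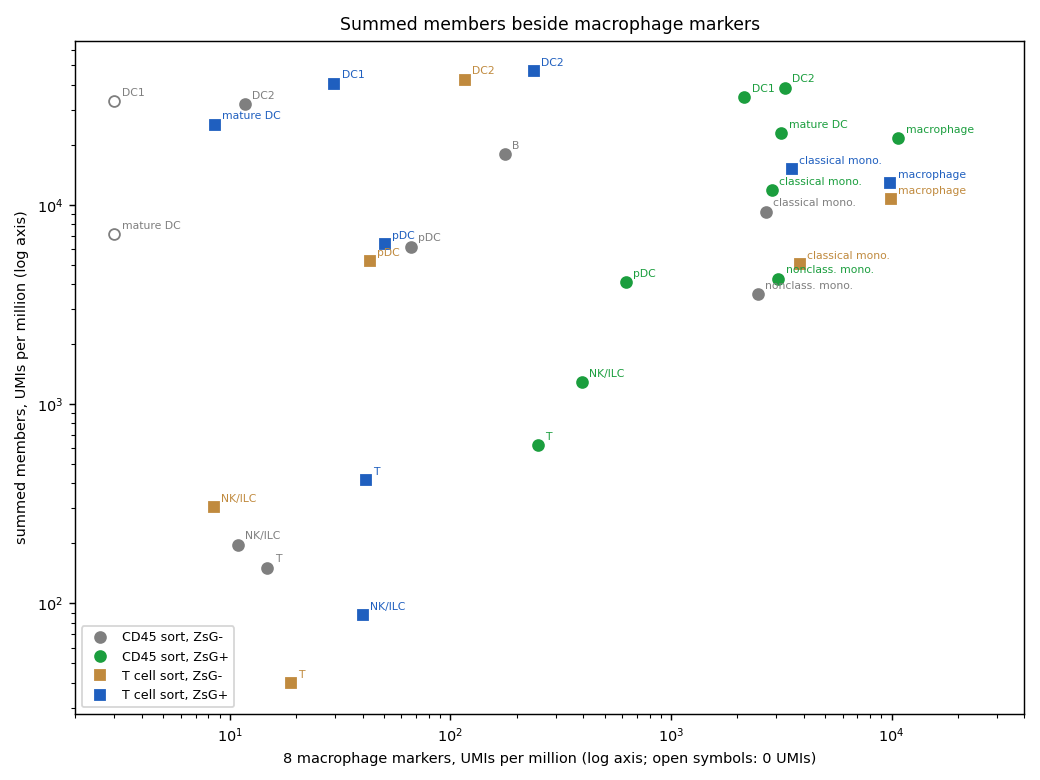
Class II sum against the summed level of 8 macrophage marker genes (both CPM, log axes) for every class and library, in 4 colours for the libraries, with classes without marker UMIs drawn as open symbols at 3 CPM. ZsG+ NK/ILC-like and T-like cells of the CD45+ sort are higher than their ZsG- counterparts on both axes, and DC1-like and DC2-like cells move mostly along the marker axis.

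In the T cell sort, T-like cells had 415.5 CPM in 591 ZsG+ and 39.9 in 566 ZsG- cells, log2 3.38 (3.16 to 3.61), and 5 of 8 members tested passed 2-fold (3.45% of all genes). This difference rested on very few cells. Of the 2353 class II UMIs in ZsG+ cells 1 cell held at least 50%, and 6 cells held 80.5%, with a median of 21332.5 UMIs per cell against 6528 in the class. These 6 cells had 782 CPM of DC markers against 136 in the rest, and 14.0 CPM of macrophage markers against 42.0. The 6 highest ZsG- cells, which held only 16 of 170 class II UMIs, likewise had 1214 CPM of DC markers against 148 in the rest. The markers of the DC classes include Itgae, which was also among the leading genes of a cluster of this sort led by Foxp3. Their level is thus not specific to DC RNA. The source of the class II RNA in these cells was not tested. Without the top 1% of each library, the levels were 83.0 and 36.3 CPM, log2 1.19. The chains and Cd74 made up most of the difference, for example H2-Aa at 62.9 against 2.8 CPM. H2-DMa was at 23.5 against 13.4 CPM and H2-DMb1 at 5.7 (32 UMIs) against 0.2 (1 UMI), whereas H2-Oa (5.5 and 7.0) and H2-Ob (2.3 and 2.3) were level. After thinning, 16.1% of ZsG+ and 7.8% of ZsG- cells had a class II UMI. The T-like cells of the 2 sorts were not the same set. The Ctla4 and Foxp3 cluster of the CD45+ sort was T-like, but a cluster of the T cell sort led by Foxp3 and Tnfrsf4 was left unnamed. It had 394 CPM in 97 ZsG+ and 145 in 30 ZsG- cells. NK/ILC-like cells of this sort had 87.0 CPM in 35 ZsG+ (13 UMIs) and 305 in 21 ZsG- cells (36 UMIs, 31 of them in 1 cell). Its classical monocyte-like cells were at 15088 CPM in 84 ZsG+ and 5027 in 26 ZsG- cells, log2 1.59, with 5 of 7 members tested past 2-fold (5.23% of all genes).

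Genes of the wider pathway, from lists chosen with earlier results known, were read in the same way. Of 7 genes that process antigen and the invariant chain, 4 were at least 2-fold higher in macrophage-like than in classical monocyte-like ZsG+ cells and 0 lower. The list's median log2 was 1.42, against 0.20 for all genes, of which 15.6% were higher and 4.14% lower. The 4 were the lysosomal proteases Lgmn (2.31), Ctsd (2.08), Ctsl (1.75) and Ctsb (1.42). Against macrophage-like cells, 5 of the 7 were at least 2-fold lower in DC1-like (median log2 -1.77, with 15.1% of all genes lower) and 4 in DC2-like cells (-1.42, with 8.26% of all genes lower), where the members were higher. Ctss, the main protease of the invariant chain in DCs and macrophages, was at 2804 CPM in macrophage-like, 1930 in DC2-like and 821 in DC1-like ZsG+ cells. In pDC-like cells Ctsl was at 1757 CPM (ZsG-) against 37 in DC2-like cells.

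Of the 7 partner factors of Ciita, 0 were past 2-fold between macrophage-like and classical monocyte-like ZsG+ cells, where 19.7% of all genes tested were. Their median log2 was -0.11. Among 9 upstream factors and parts of the interferon gamma receptor, 1 was at least 2-fold lower there, Jak2 (-1.09), with a median of -0.43. Of all genes tested there, 4.14% were at least 2-fold lower. Irf8, the factor of DC1 and pDC fate, was at 2063 CPM in DC1-like and 3404 in pDC-like cells against 453 in macrophage-like cells. Irf4 was at 18 CPM in DC2-like against 4 in macrophage-like cells, but also at 24.6 in mature DC-like and 29.9 in T-like ZsG+ cells. Of 7 class I genes 0 passed 2-fold between macrophage-like and classical monocyte-like cells, between ZsG+ and ZsG- NK/ILC-like cells (median log2 0.00) or between ZsG+ and ZsG- T-like cells (-0.24). Of all genes tested, 19.7%, 13.7% and 6.3% passed 2-fold in these comparisons of the CD45+ sort.

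Across 17 sums of a class in a library, the genes whose log level was most like the class II sum were Fgd2 (Pearson's r 0.94), Plekho1 (0.94), Ifi30 (0.92), Rasgef1b (0.91), Btk (0.90), Cd86 (0.89), Cfp (0.88), Spi1 (0.88), Atp6v0a1 (0.87) and Pkib (0.87), from 10345 genes. The members' own values were 0.986 to 0.997 for H2-Aa, H2-Ab1, H2-Eb1 and Cd74, 0.92 to 0.95 for H2-DMa, H2-DMb1 and Ciita, 0.78 for H2-DMb2, 0.59 for H2-Ob and 0.42 for H2-Oa. These points share libraries and depth, and the members are parts of the sum, so the values are a description only.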

How the data were processed

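Single-cell 3′ RNA was counted in 4 libraries. The authors deposited UMI counts per gene and cell, made with Cell Ranger 6.1.2 per the labels (matrix headers 7.0.0 for CD45+ and 6.1.2 for T cells) against mm10 and aggregated per sort. The sources used here do not say whether depth was equalised. No column was left out (0 unused).

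Cells were kept at 1000 to 6000 genes and under 10% mitochondrial UMIs (CD45+ sort), or 50 to 6000 genes and under 15% (T cell sort), with at least 0.055% CD3 UMIs for T-like cells. Counts were log-normalised and clustered (2000 variable genes without class II genes, 20 components, 20 neighbours, Leiden at resolution 0.8 and 1.2 for subclusters; scanpy 1.11.5, leidenalg 0.10.2, scikit-learn 1.9.0, Python 3.11.15). A cluster was named when at least 3 markers and 50% of a class's markers were raised 1.2 times and led the other classes. This rule is the third version, set after clusters were seen. Members, markers and pathway lists were chosen with earlier results of these data known. All members are named, and up to 4 genes of a list, those of the largest ratios. Scrublet called 0.192% and 0.0485% of the CD45+ cells, too few to have worked, and 0.633% and 0.585% of the T cell sort (ZsG- and ZsG+), and no doublets were removed in either sort.

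UMIs were summed per class and library, with exact Poisson, Clopper-Pearson and conditional 95% intervals (scipy 1.17.1). Classes under 10 cells in a library were left out. A gene was tested against 2-fold at 20 or more UMIs over both groups, with 0.5 added to each sum. A count of 0 allows up to 3 UMIs. TMM factors came from edgeR 4.0.16 (R 4.3.3). Ratios were tested on simulated data. Alternatives were thinning, per-cell means, TMM, other totals, cell filters and clusterings.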

Additional observations from a re-analysis of the deposited data

Results flagged for a closer look

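In 3 comparisons the CD45+ sort and the T cell sort gave opposite directions of the summed class II level, on the log2 scale. With 1 library per group the difference between the sorts was not tested. For pDC-like cells, ZsG+ over ZsG- was -0.59 in the CD45+ sort and 0.29 in the T cell sort. For NK/ILC-like cells it was 2.71 and -1.81, the latter from 13 and 36 UMIs. For macrophage-like over classical monocyte-like ZsG+ cells it was 0.87 and -0.23. The opposite reading of the T cell sort's labels would give the ZsG values of that sort the other sign.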

How the results depend on the processing

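No paired analysis was possible because each group was 1 library, and no library could be left out for the same reason. Of 96 values of the comparisons under an alternative, 91 kept their direction, 47 moved by less than their counting interval, 44 moved by more and 5 turned. DC1-like values under 10 components were not given, since no cluster was then named DC1-like. In what follows all values are log2 differences of class II sums, ZsG+ over ZsG- unless said otherwise, and the cause of each shift was not tested. The values that turned were those of nonclassical monocyte-like cells (-0.054 with TMM factors, -0.042 with the mitochondrial limit at 5%), pDC-like cells (1.24 with 10 components, 1.59 with the 5% limit) and classical monocyte-like cells within 1 cluster (-0.13).

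Thinned to 2000 UMIs, macrophage-like over classical monocyte-like cells gave 0.99, classical monocyte-like 0.28, nonclassical 0.45, DC2-like 0.31, NK/ILC-like 3.47, T-like 2.88 (T cell sort 2.11) and H2-O per H2-DM 3.36. Means per cell gave 1.00, 0.26, 0.41, 0.32, 3.41, 2.96 (2.11) and 3.40 in the same order. TMM factors gave 0.72 for macrophage-like over monocyte-like, 0.46 for classical monocyte-like, 0.18 for DC1-like, 2.02 for mature DC-like and -0.81 for pDC-like cells. The 5% limit gave 0.97 for macrophage-like over monocyte-like, 0.48 classical monocyte-like, 0.23 DC2-like, 1.53 mature DC-like, 2.49 NK/ILC-like, 1.87 T-like and 3.91 for H2-O per H2-DM. With 10 components they were 0.18 for macrophage-like over monocyte-like, 1.06 for classical monocyte-like and 1.69 for T-like cells. Totals without mitochondrial and ribosomal protein genes gave 0.88 for macrophage-like over monocyte-like, 0.0051 for DC1-like and 0.16 for DC2-like cells. Without the top 5% of doublet scores, values were 0.90 for macrophage-like over monocyte-like, 0.11 DC1-like, 0.31 DC2-like, 3.29 T-like and 1.32 T-like in the T cell sort. Without cells with a macrophage marker UMI, which need not take out all macrophage RNA, NK/ILC-like cells gave 2.38. Without the 1% of cells highest in class II, T-like cells gave 3.20 and 1.19 (T cell sort). Without the cycling cluster led by Anln, macrophage-like over monocyte-like cells gave 0.89 and H2-O per H2-DM 3.97. The last 2 settings and the 1-cluster value were chosen after seeing the data. Clustering at resolution 0.5 moved none of the 11 comparisons beyond its interval. With genes kept from 1 UMI, all 40 counts of genes past 2-fold moved by over 1.5 times, as did 6 counts of members. Depth limits H2-Oa, H2-Ob, H2-DMb2 and Ciita most, which often rest on under 20 UMIs in a class.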

Other observations

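T cells were also split by their own genes, in clusters with at least 50% of the T cell markers raised, whether or not the cluster was named. The CD45+ cluster of mixed lineage led by Foxp3, Tnfrsf4 and Ctla4, described below, was left out. Cells with a UMI of Foxp3, the factor of regulatory T cells, had a class II sum of 893 CPM in 20 ZsG+ and 788 in 73 ZsG- cells of the CD45+ sort. In the latter 2 cells held 858 of 1158 UMIs, and the median cell was at 506 CPM in ZsG+ and 94.6 in ZsG- cells. Those with Cd8a and without Cd4 had 474 CPM in 107 ZsG+ and 80.9 in 823 ZsG- cells. The 56 ZsG- cells with Cd4 and neither of the others had 1012 CPM, but 1 cell held 491 of their 531 UMIs and the median cell was at 0. The T cell sort gave 1224 and 86.0 CPM for Foxp3 (127 ZsG+ and 37 ZsG- cells), 309.5 and 35.6 for Cd8a (416 and 378) and 94.7 and 34.4 for Cd4 (42 and 62). There too a few cells carried the sums. A single cell held 1381 of the 1788 UMIs of the ZsG+ Foxp3 cells, whose median was 156 CPM against 42.3 in ZsG- ones, and 2 cells held 719 of the 1321 UMIs of the ZsG+ Cd8a cells, whose median was 0 as in ZsG- ones. Most Foxp3 cells of this sort lacked the chains. Cd74 was found in 59.1% of the ZsG+ and 37.8% of the ZsG- ones, and H2-Aa in 6.3% and 0%. In the CD45+ sort Cd74 was in 95% and 50.7% of the Foxp3 cells, and H2-Aa in 75% and 9.6%.

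A cluster of the CD45+ sort led by Foxp3, Tnfrsf4 and Ctla4 was not named and entered no comparison, since markers of 2 lineages were raised in it. It had 14932 CPM of class II in 223 ZsG+ and 7434 in 38 ZsG- cells, beside 6811 and 1082 CPM of the macrophage markers, at a median of 18503 and 15457.5 UMIs per cell. An unnamed cluster led by Apod, Cd209d and Cyp7b1 had 28060 CPM in 40 ZsG+ and 7388 in 20 ZsG- cells, with Ciita at 140 and 16.2 CPM.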
